A study of Homo sapiens with 6 samples.

Results

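Epithelial-mesenchymal transition (EMT) is the programme by which epithelial cells loosen their junctions and take on a migratory, mesenchymal state. Genes at the core of this programme were chosen by name from the gene count table, and all 10 were found among its 58735 genes. They are the mesenchymal markers CDH2, VIM and FN1, the EMT transcription factors ZEB1, ZEB2, SNAI1, SNAI2 and TWIST1, and the epithelial splicing regulators ESRP1 and ESRP2. The comparison asked whether these transcripts differed after knockdown of SRSF11, an arginine/serine-rich splicing factor, in a colorectal cancer line.

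LoVo is an established human cell line from a colorectal adenocarcinoma. The 3 si-NC libraries come from cells given a control siRNA and the 3 si-SRSF11 libraries from cells in which SRSF11 was targeted by siRNA, and polyadenylated RNA was sequenced as paired-end reads. The labels name no other treatment or allele in either group, and the siRNA sequence and the hours after transfection used for sequencing are not given in the sources used here. All libraries come from 1 cell line. The study describes its control and knockdown RNA samples as independent and in pairs, without saying whether they came from separate cultures or which samples form a pair. The p-values measure only the spread between these samples, which may be technical.

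In textbook accounts, the SNAIL (SNAI1, SNAI2) and ZEB (ZEB1, ZEB2) zinc finger families bind E-box motifs and repress CDH1, the gene of E-cadherin, while TWIST1 is a basic helix-loop-helix factor of the same programme. N-cadherin (CDH2), the intermediate filament protein vimentin (VIM) and the matrix glycoprotein fibronectin (FN1) are read as its mesenchymal products. ESRP1 and ESRP2 are RNA-binding proteins that hold epithelial splice forms of genes such as CD44 and FGFR2, and ZEB1 is known to repress ESRP1.

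The start regions of CDH2 and ZEB1 are shown because CDH2 was the member with a called difference and the start region of ZEB1 overlaps that of an antisense gene whose level fell. Each run is the RefSeq window of GRCh38.p14 from 250 bases before to 50 bases after a start site, written 5′ to 3′ on the gene's strand, and capitals mark E-boxes (CANNTG, a word that reads alike on both strands). The CDH2 window is chr18:28177081-28177380 on the minus strand, and the ZEB1 window is chr10:31318966-31319265 on the plus strand.
CDH2: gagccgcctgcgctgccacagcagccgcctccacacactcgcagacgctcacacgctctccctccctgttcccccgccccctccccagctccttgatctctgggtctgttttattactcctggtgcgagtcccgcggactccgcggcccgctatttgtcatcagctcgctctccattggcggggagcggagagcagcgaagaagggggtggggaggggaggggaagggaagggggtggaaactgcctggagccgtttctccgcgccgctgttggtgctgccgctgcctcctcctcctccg
ZEB1: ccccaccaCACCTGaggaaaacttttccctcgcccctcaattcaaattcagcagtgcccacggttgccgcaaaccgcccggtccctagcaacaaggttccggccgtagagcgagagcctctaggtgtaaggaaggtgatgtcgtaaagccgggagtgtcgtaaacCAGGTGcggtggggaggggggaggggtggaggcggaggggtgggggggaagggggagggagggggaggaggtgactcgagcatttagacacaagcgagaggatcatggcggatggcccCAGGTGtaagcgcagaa

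The CDH2 window shown held no CANNTG, and the other RefSeq start window of CDH2 held 1. The ZEB1 window was picked after the motif counts were seen, as the ZEB1 window with the most CACCTG or CAGGTG. It held 3 CANNTG, with first bases at -242, -85 and 34 from the start site. Another ZEB1 window also held 3 CANNTG, none of them CACCTG or CAGGTG. All 3 in the window shown were CACCTG or CAGGTG, which the choice of window favoured. These words are reverse complements of each other and are a subset of CANNTG. Of all 35116 RefSeq start windows of this length, 68.7% held CANNTG and 20.6% held CACCTG or CAGGTG. Start windows were matched for 5 of the 10 genes (CDH2, VIM, FN1, ZEB1 and ZEB2), 12 windows in all. Of these, 6 held CANNTG and 2, both of ZEB1, held CACCTG or CAGGTG. A match is a description of these letters.

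Library totals ranged from 14369525 to 16685719 counts. Here and in what follows, a value after ± is the SD over the 3 libraries of a group. SRSF11 fell from 86.3 ± 1.91 to 49.4 ± 0.952 CPM (counts relative to library size, TMM scaled), which left 57.2% of the si-NC level (log2 fold change -0.81, standard error 0.054). Labels and target gene thus went the same way in all 6 libraries, although a splicing plot of the study brackets the library names with the conditions the other way round. The labels were used here. Intestinal epithelial markers had a summed level of 6688 to 7090 CPM in si-NC and 6705 to 7133 CPM in si-SRSF11. KRT8 alone had a mean of 3134 CPM in si-NC and 3292 in si-SRSF11, so the sum does not show how the other markers moved. All 14 were tested, 1 rose and 3 fell, with log2 fold changes from -0.52 to 0.40 over the list. Of the markers of other cells, leukocyte PTPRC, endothelial KDR and fibroblast DCN, LUM and PDGFRA had 0 counts in all libraries. These were 1 of 8 leukocyte, 1 of 7 endothelial and 3 of 8 fibroblast markers listed. Others had reads, such as fibroblast COL1A1 (12.7 CPM in si-NC, 11.7 in si-SRSF11) and leukocyte CD14 (2.96 and 3.77 CPM). The fibroblast markers summed to 19.8 to 23.3 CPM in si-NC and 24.8 to 28.9 CPM in si-SRSF11. The leukocyte markers summed to 4.20 to 5.99 CPM in si-NC and 5.68 to 6.63 CPM in si-SRSF11, and the endothelial markers to 1.67 to 2.69 and 1.22 to 2.58 CPM.

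Of the 10 genes, 7 passed the filter of at least 10 counts in at least 3 libraries and 1 of these, CDH2, was called. Called means an adjusted p under 0.05 in edgeR's quasi-likelihood test with Benjamini-Hochberg adjustment over all 15801 tested genes. By the same rule 24.6% of all tested genes were called, 13.2% higher and 11.4% lower in si-SRSF11. With scaling by library size alone the split of all called genes turned, from 2081 higher and 1805 lower to 1585 higher and 2289 lower. The 3 genes under the filter were SNAI2, ZEB2 and TWIST1. In 5 of the 7 tested genes (CDH2, VIM, ZEB1, SNAI1 and ESRP1) the 3 si-SRSF11 libraries did not overlap the 3 si-NC libraries, beside 38.9% of all tested genes. With 3 libraries against 3, the exact two-sided permutation test cannot go below p = 0.10, the value of each of these 5.

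**Figure D1:**
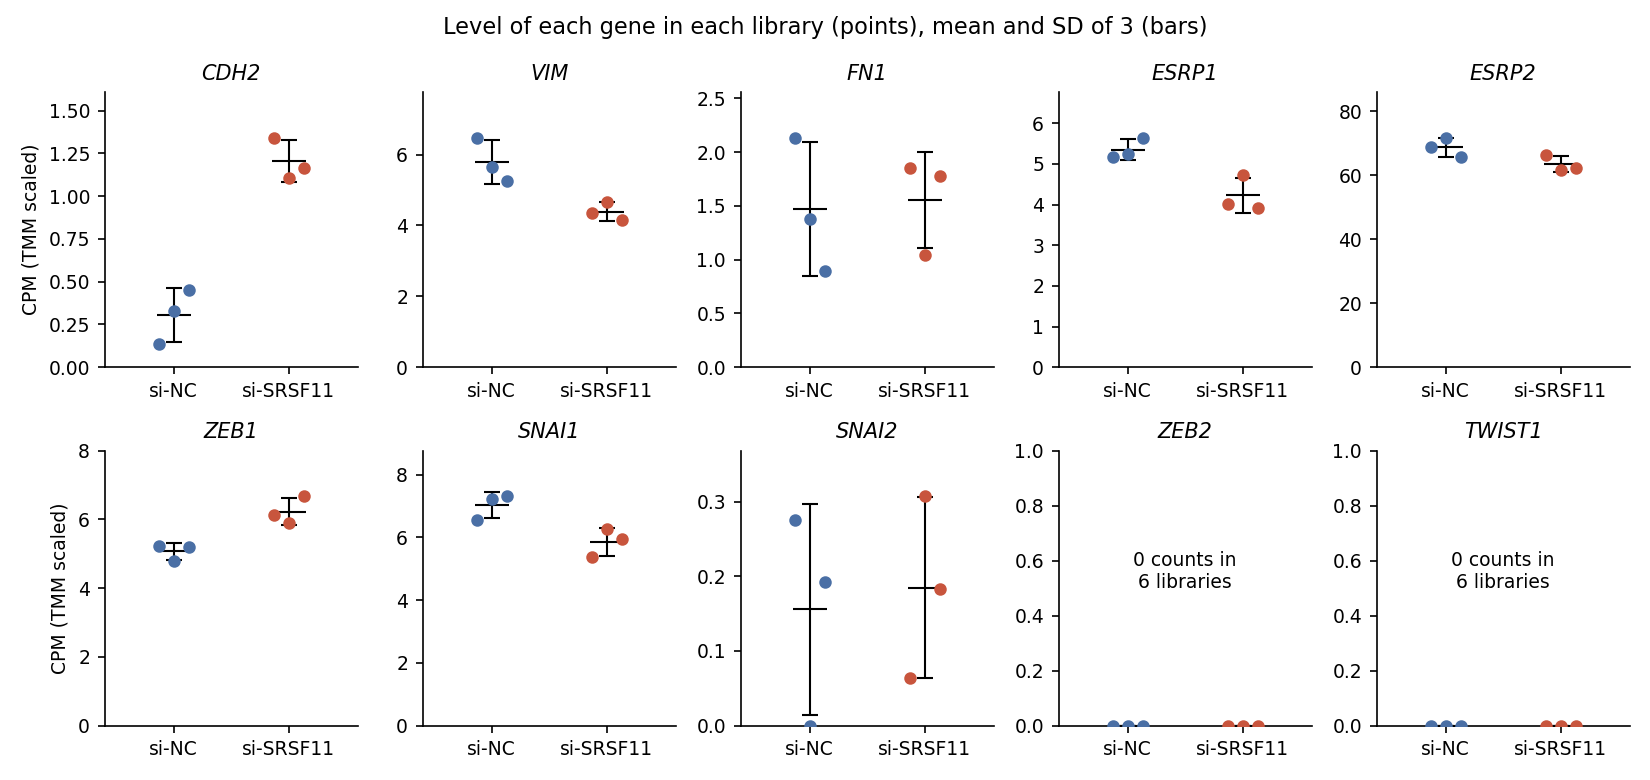
The level of each of the 10 genes in CPM is plotted for the 3 si-NC and 3 si-SRSF11 libraries (points), with the mean and SD (bars), on a linear axis from 0 for each gene. CDH2 lies between 0.138 and 0.449 CPM in si-NC and between 1.11 and 1.34 CPM in si-SRSF11, while ZEB2 and TWIST1 stay at 0.

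CDH2 encodes N-cadherin, the cadherin that mesenchymal cells use in place of E-cadherin. It lies at chromosome 18 of GRCh38, 27950966 to 28177446, minus strand (ENSG00000170558). It had 2, 5 and 7 counts in si-NC replicates 1 to 3 and 21, 18 and 19 counts in si-SRSF11 replicates 1 to 3, so every si-SRSF11 library lay above every si-NC library. In CPM it stood at 0.138, 0.328 and 0.449 in si-NC and 1.34, 1.11 and 1.16 in si-SRSF11, a mean of 0.305 ± 0.157 against 1.20 ± 0.122. CDH2 rose by a log2 fold change of 1.94 (95% interval 1.01 to 2.87, edgeR adjusted p = 0.0028), a 3.83-fold rise. The pooled 14 against 58 counts give a ratio of 3.80 per library size, with an exact 95% interval of 2.09 to 7.38 that covers counting error only.

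The CDH2 value rests on few reads, and the gene passed the filter through the si-SRSF11 libraries alone, since 0 of 3 si-NC libraries and 3 of 3 si-SRSF11 libraries held 10 counts. With a filter that reads the mean of all 6 libraries, chosen after the data were seen, the adjusted p was 0.0028 by the same edgeR test. Leaving out 1 library at a time gave log2 fold changes of 1.61 to 2.32. DESeq2 gave an unadjusted p of 0.00093 and no adjusted p, since its own filter on low means set CDH2 aside. With that filter off, the DESeq2 adjusted p was 0.0078. Ranked by signed log2 fold change from the largest rise down, CDH2 was 12 of 15801 tested genes and 9 of 12770 protein-coding genes. Passing the filter through the higher group alone, with few si-NC reads, favours such a rank, so it is no further support. By level CDH2 stayed low, with 31.5% of protein-coding genes below it in si-NC and 38.1% in si-SRSF11. It shares 136 exon bases (2.75%) with the antisense gene AC110015.1, which had 4, 6 and 4 counts in si-NC and 9, 5 and 2 in si-SRSF11. No source used here says that counting was by strand, so reads in shared bases cannot be told apart.

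Per kb of gene length, E-cadherin (CDH1) exceeded N-cadherin in every library. The ratio of CDH1 to CDH2, in CPM per kb, was 1394, 550 and 383 in si-NC replicates 1 to 3 and 153, 181 and 165 in si-SRSF11 replicates 1 to 3. The groups did not overlap (p = 0.10 by the exact permutation test). CDH2 alone already parted the groups, so the ratio restates its values and adds no separate support. CDH1 itself had 226 ± 12.6 CPM in si-NC and 248 ± 7.89 CPM in si-SRSF11, a log2 fold change of 0.13 (95% interval 0.03 to 0.24, adjusted p = 0.057 by edgeR's test) that was not called. Among CDH2 and the 17 other classical cadherins listed, CDH1 had the most reads per length.

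VIM (chromosome 10, 17228259 to 17237593, plus strand) encodes vimentin. It had 94, 86 and 82 counts in si-NC and 68, 76 and 68 in si-SRSF11. In CPM all si-SRSF11 libraries lay below all si-NC libraries, at 4.39 ± 0.256 against 5.79 ± 0.620. The log2 fold change was -0.40 (95% interval -0.74 to -0.06), and the adjusted p of 0.081 by edgeR's test missed the threshold. VIM shares 24.4% of its exon bases with 2 antisense genes, of which AL133415.1 had 0 counts throughout. The other, VIM-AS1, held 21, 13 and 21 counts in si-NC and 16, 8 and 13 in si-SRSF11, and was not called (log2 fold change -0.66, adjusted p = 0.22 by edgeR).

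FN1 (chromosome 2, 215360440 to 215436172, minus strand) encodes fibronectin and showed no order between the groups. It had 31, 21 and 14 counts in si-NC and 29, 17 and 29 in si-SRSF11. The means were 1.47 ± 0.623 CPM in si-NC and 1.56 ± 0.446 CPM in si-SRSF11 (log2 fold change 0.09, 95% interval -0.61 to 0.79, adjusted p = 0.88 by edgeR). The interval leaves room for a change of either sign, and leaving out si-NC replicate 3 or si-SRSF11 replicate 1 or 3 turned the sign. Of the 3 mesenchymal markers, 1 rose, and the other 2 were not called.

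**Figure D2:**
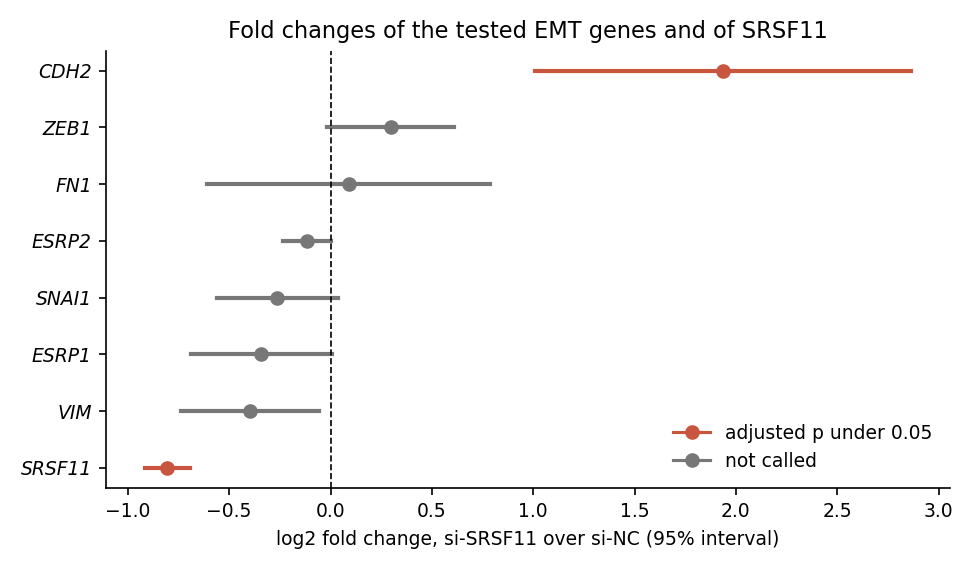
The log2 fold change of si-SRSF11 over si-NC (point) and its 95% interval (line) are shown for SRSF11 and the 7 tested EMT genes, with called genes in orange. CDH2 at 1.94 is the called EMT gene and SRSF11 lies at -0.81, while the other 6 are grey, with values between -0.40 and 0.30.

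ZEB1 and SNAI1 were the EMT transcription factors with reads enough to test, and neither was called. ZEB1 (chromosome 10, 31318495 to 31529814, plus strand) was counted 76, 73 and 81 times in si-NC and 96, 96 and 109 in si-SRSF11. Its level was 5.07 ± 0.242 CPM in si-NC and 6.23 ± 0.399 CPM in si-SRSF11, with no overlap between the groups. The log2 fold change was 0.30 (95% interval -0.02 to 0.61, adjusted p = 0.16 by edgeR's test). SNAI1 (chromosome 20, 49982999 to 49988886, plus strand) was counted 95, 110 and 114 times in si-NC and 84, 102 and 97 in si-SRSF11. In CPM it had 7.02 ± 0.421 against 5.85 ± 0.457, again with no overlap, and its log2 fold change was -0.26 (95% interval -0.56 to 0.04, adjusted p = 0.19 by edgeR). The point estimates of both genes thus had opposite signs, and neither interval left out 0. Per kb, the SNAI1 to ZEB1 ratio was 7.12 ± 0.664 in si-NC and 4.84 ± 0.535 in si-SRSF11 (p = 0.10, exact permutation test). Its lack of overlap follows from that of the genes themselves, neither of them called, whose point estimates had opposite signs.

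SNAI2, ZEB2 and TWIST1 were hardly seen or not seen. SNAI2 (chromosome 8, 48917604 to 48921740, minus strand) had 4, 0 and 3 counts in si-NC and 1, 5 and 3 in si-SRSF11, 7 against 9 in all, and the groups overlapped. With no filter its log2 fold change was 0.24 with a standard error of 1.01, so a change was not detectable at this depth. ZEB2 (chromosome 2, 144364364 to 144524583, minus strand) and TWIST1 (chromosome 7, 19020991 to 19117672, minus strand) had 0 counts in all 6 libraries. A count of 0, read as at most 3 counts in a group, allows up to 0.0669 CPM in si-NC and 0.0614 in si-SRSF11, for counting error only. Their antisense neighbours ZEB2-AS1 and AC003986.2 had 0 counts as well.

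ZEB1-AS1, an antisense gene that overlaps the start of ZEB1, fell. It spans 31206278 to 31320447 on the minus strand of chromosome 10, and 366 of its exon bases, 4.23% of those of ZEB1, overlap ZEB1. It had 210, 205 and 230 counts in si-NC and 161, 172 and 155 in si-SRSF11. The level fell from 14.2 ± 0.671 CPM to 10.1 ± 0.556 CPM (log2 fold change -0.49, 95% interval -0.72 to -0.27, adjusted p = 0.0017 by edgeR's test). In CPM per kb, the ratio of ZEB1-AS1 to ZEB1 was 6.24, 6.34 and 6.41 in si-NC and 3.79, 4.05 and 3.21 in si-SRSF11. It showed no overlap (p = 0.10, exact permutation test), which follows from the values of the genes themselves. Reads in the 366 shared bases may belong to either gene.

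**Figure D3:**
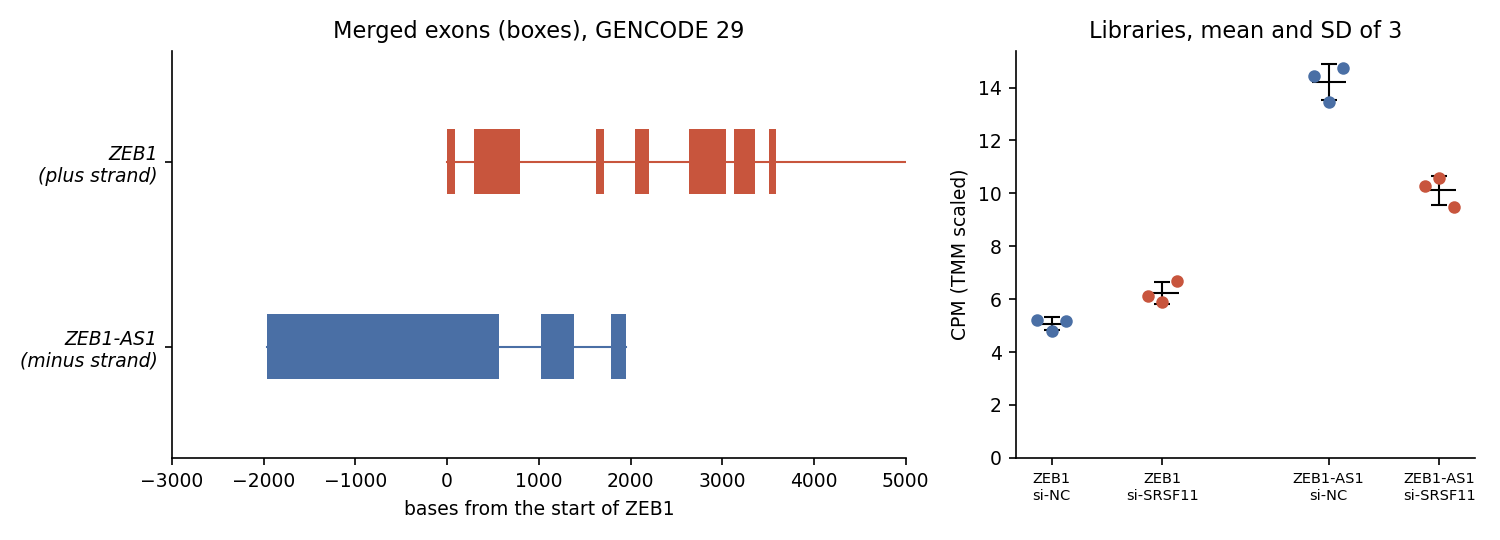
On the left, merged exons (boxes) of ZEB1 and ZEB1-AS1 are drawn by distance in bases from the start of ZEB1, and on the right the CPM of both genes is given per library (points) with mean and SD (bars). The means are 5.07 and 6.23 CPM for ZEB1, which was not called, and 14.2 and 10.1 CPM for ZEB1-AS1, in si-NC and si-SRSF11.

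ESRP1 and ESRP2, the epithelial splicing regulators, were both measured and neither was called. ESRP1 (chromosome 8, 94641074 to 94707466, plus strand) was counted 75, 80 and 88 times in si-NC and 63, 77 and 64 in si-SRSF11. Its CPM was 5.35 ± 0.253 against 4.22 ± 0.441, without overlap (log2 fold change -0.34, 95% interval -0.69 to 0.01, adjusted p = 0.14 by edgeR). ESRP2 (chromosome 16, 68229111 to 68238102, minus strand) had 998, 1091 and 1024 counts in si-NC and 1037, 1002 and 1017 in si-SRSF11. Its CPM was 68.6 ± 3.01 against 63.3 ± 2.50, with overlap between the groups (log2 fold change -0.12, 95% interval -0.23 to 0.00, adjusted p = 0.14 by edgeR). ESRP2 thus bounds any change most tightly of the 7 tested genes, as its larger counts allow. Per kb, ESRP2 exceeded ESRP1 by 11.3 ± 0.940 times in si-NC and 13.3 ± 1.62 times in si-SRSF11 (p = 0.30, exact permutation test). Of the 16 listed genes with ESRP-regulated exons, all 16 were tested, 1 rose and 2 fell. NUMB, a Notch regulator, fell from 68.0 to 56.6 CPM, GRHL1 fell from 13.1 to 8.19 CPM, and RALGPS2 rose from 27.8 to 33.9 CPM. Counts per gene hold no exon or junction reads, so the splice forms of these genes were not measured.

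Across the 10 genes, levels per kb of gene length spanned a wide range. Gene length here is the merged exon bases of all annotated transcripts, which can exceed the transcript in use. The order between genes therefore depends on this divisor. In si-NC the order by mean CPM per kb was ESRP2 at 12.3, SNAI1 at 4.17, VIM at 1.12, ESRP1 at 1.10, ZEB1 at 0.586, FN1 at 0.0849, CDH2 at 0.0616 and SNAI2 at 0.0459, followed by ZEB2 and TWIST1 at 0. The libraries of VIM and ESRP1, of FN1 and CDH2, and of CDH2 and SNAI2 overlapped, so these neighbours were not parted on this scale. In si-SRSF11 the order was ESRP2 at 11.4, SNAI1 at 3.47, ESRP1 at 0.866, VIM at 0.851, ZEB1 at 0.720, CDH2 at 0.243, FN1 at 0.0899 and SNAI2 at 0.0545. There the libraries of ESRP1 and VIM and of FN1 and SNAI2 overlapped, and those of CDH2 lay above those of FN1. Without the division by length, FN1 had the higher si-SRSF11 mean, 1.56 CPM against 1.20 for CDH2. FN1 has 17315 bases of gene length and CDH2 has 4950.

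**Figure D4:**
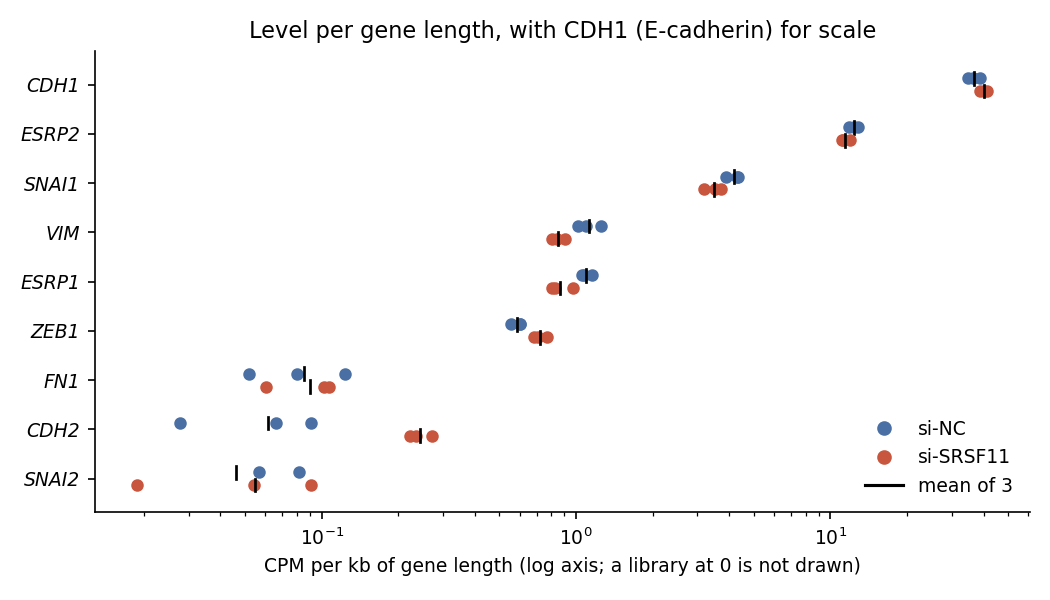
CPM per kb of gene length is shown on a log axis for each library (points) of si-NC and si-SRSF11, with the mean of 3 (lines), for the genes with reads and for CDH1 as a scale. CDH2 moves from a mean of 0.0616 to 0.243 CPM per kb, beside 36.6 to 40.2 for CDH1.

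The 7 lists of related genes held 141 genes, of which 103 were tested. In this union 18 genes rose and 19 fell, 37 in all (35.9% of those tested, beside 24.6% of all tested genes), with a median log2 fold change of 0.03 beside 0.00 for all tested genes. The genes named from these lists as risen or fallen were picked by their small adjusted p, except LOXL2. For the genes so picked, the adjusted p by edgeR lay between 3.0e-08 and 0.020. Their libraries did not overlap between the groups, which that choice all but fixed, so it is no further support. Without si-NC replicate 3 the number that fell was 11, while the falls among all tested genes went from 1805 to 1314.

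Of the 16 other EMT transcription factors, 9 were tested, 2 rose and 1 fell (median 0.13). TCF3, which encodes the E proteins E12 and E47, rose from 212 to 263 CPM. SOX4, a high mobility group factor, rose from 99.8 to 124 CPM, and ETS1 fell from 7.45 to 5.35 CPM. Of the 16 epithelial transcription factors, 14 were tested, 3 rose and 3 fell (median -0.09). The intestinal factors CDX2 and HNF4A rose, from 68.0 to 90.1 and from 84.0 to 101 CPM, and GRHL1 of the grainyhead family fell by a log2 fold change of -0.68 (adjusted p = 0.00036 by edgeR).

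Other mesenchymal genes did not move one way, with 5 of 21 tested genes higher and 3 lower (34 listed, median 0.05). S100A4, a gene of the S100 calcium-binding family, rose from 380 ± 8.89 to 577 ± 65.0 CPM and the receptor gene PDGFRB rose from 8.87 ± 1.46 to 14.4 ± 1.12 CPM. PDGFRB is also on the list of fibroblast markers, whose summed level was 19.8 to 23.3 CPM in si-NC and 24.8 to 28.9 CPM in si-SRSF11, with DCN, LUM and PDGFRA at 0; its part in these results was not tested. The 5 higher genes include LOXL2, which lies outside the naming rule and was picked after its values were seen. Like CDH2, it passed the filter through the si-SRSF11 libraries alone, with 4, 3 and 9 counts in si-NC and 13, 20 and 14 in si-SRSF11, so its call is no support for a direction of the list. In bulk samples, fewer cells of a type and less RNA per cell cannot be told apart.

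Of the 26 TGF-beta pathway genes, 23 were tested, 5 rose and 4 fell (median 0.09). The ligand gene BMP4 rose from 122 ± 3.50 to 178 ± 5.78 CPM and the receptor gene TGFBR2 from 339 ± 4.68 to 434 ± 17.3 CPM. The ligand gene TGFB1 fell from 325 ± 1.04 to 263 ± 3.15 CPM, with 6.64% of its exon bases in another gene. Of the 18 other splicing regulators linked to EMT, 16 were tested, 2 rose and 6 fell (median -0.02). KHDRBS3 fell by a log2 fold change of -0.44 and HNRNPM, which is known for CD44 splicing, rose from 304 to 357 CPM. SRSF1 rose from 42.8 to 53.7 CPM, but 60.7% of its exon bases overlap other genes. Among 17 cadherins other than CDH2, 6 were tested and CDH24 alone was called, falling from 83.8 to 68.0 CPM.

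**Figure D5:**
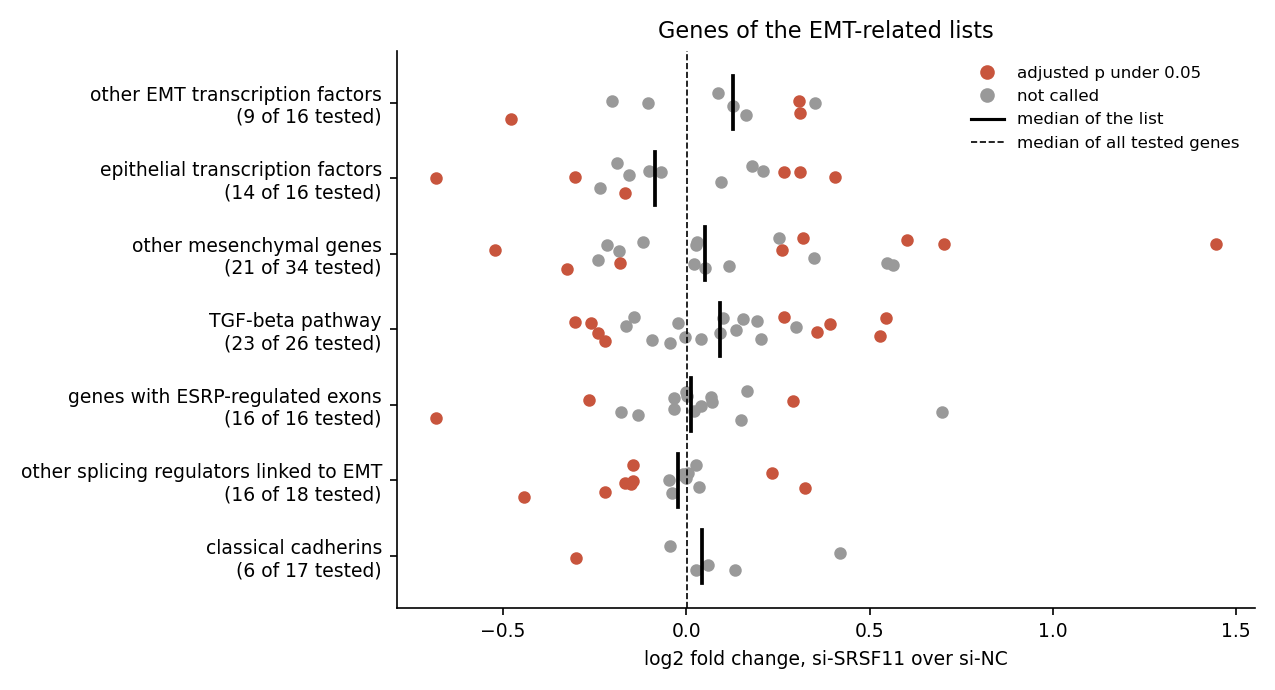
The log2 fold change of each tested gene is plotted for the 7 lists (points, orange where called), with the median of each list (bars) and the median of all tested genes (dashed line). List medians lie between -0.09 and 0.13, with called genes on both sides of 0 in all lists but the cadherins.

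By the fixed rule, LGR5, HSD3B1 and CXCL3 had the profiles over the 6 libraries most like that of CDH2, among protein-coding genes above a level cut. Likeness was the root mean square difference of log2(CPM + 0.5), centred on each gene's mean, over 11020 candidates. Candidates had a mean of at least 2 on this log2 scale. CDH2 itself lay below that cut, so genes at its own level were not compared. It was 0.0972 for LGR5, the R-spondin receptor gene that marks intestinal stem cells, 0.121 for HSD3B1, a steroid-synthesis enzyme gene, and 0.152 for CXCL3, a chemokine gene. The added 0.5 CPM is larger than the si-NC mean of CDH2 (0.305 CPM) and narrows its profile on this scale, so the measure favours genes with smaller folds. The fitted folds were 2.15 for LGR5, 2.28 for HSD3B1 and 2.05 for CXCL3, beside 3.83 for CDH2.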

How the data were processed

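Groups follow the labels. The authors deposited raw read counts per gene for the 6 libraries, without normalization, with gene names, GRCh38 coordinates and a gene length that equals the merged exon bases of GENCODE 29; the aligner, the counting program and its strand setting are not given in the sources used here. Counts were scaled by TMM and those reaching 10 counts in 3 or more libraries went into edgeR (version 4.0.16, R 4.3.3) and its quasi-likelihood test, on condition alone. CPM are counts over the TMM-scaled library total. Standard errors come from the F statistic. Single values were compared by the exact two-sided permutation test. The alternatives were DESeq2 (version 1.42.0), other scalings and filters, protein-coding genes, a replicate block, and fits leaving out 1 library, which kept the genes of the full fit.

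The genes, lists and tests were chosen with earlier results of these data known. Named genes are the 10 genes, SRSF11, at most 3 genes of each list with the smallest adjusted p under 0.05, CDH1 (the classical cadherin with the most reads per length), antisense neighbours of the 10 genes, and the 3 genes nearest to CDH2 in profile. A gene that this rule names is not reported here. On simulated data, the fit called 68.7% of 99 genes changed by a log2 fold change of 0.5 and 86% of 100 genes changed by 1, beside 2 of 15360 unchanged genes. That simulation changed 200 genes drawn from all levels, while 24.6% of tested genes were called in the data. Its rates are thus not those for genes of few counts such as CDH2 or FN1. Splicing events were not analysed here.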

Additional observations from a re-analysis of the deposited data

How the results depend on the processing

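CDH2 kept its direction and call under each alternative that gave it an adjusted p. Its log2 fold changes were 1.61 to 2.32 and its adjusted p 0.0010 to 0.021 by edgeR and DESeq2. The fits that left out a library kept the genes of the full fit. With any si-SRSF11 library left out, CDH2 would not have passed the filter anew, so its calls there rest on the full data. The number of the 10 genes called was 1, and it was 0 with DESeq2 size factors, whose own filter left CDH2 without an adjusted p, and 0 with at least 50 counts in 3 libraries, where CDH2 was not tested. FN1 turned sign in 3 of the 6 fits that left out a library, with a range of -0.17 to 0.45. The union of 7 lists had 37 genes called and, with a library left out, 28 to 38. Over all tested genes the calls were 3886 and, with a library left out, 2733 to 3877. The fewest falls in the lists were 11 without si-NC replicate 3 (19 with all libraries). Over all tested genes that fit had 1314 falls (1805 with all libraries). The cause was not tested. The other 5 tested genes kept their sign and stayed uncalled under all alternatives, and SRSF11 stayed between -0.84 and -0.79.

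The study speaks of pairs, but no source ties them to the replicate numbers, and the numbers did not pair the libraries by their values: the deviations of same-numbered libraries from their group means correlated at 0.00527, 0.0438 and 0.0532. With a replicate block in the edgeR fit, CDH2 had a log2 fold change of 1.94 (adjusted p = 0.0051), 1 of the 10 genes was called, and the lists had 38 called genes.

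Depth limits SNAI2, ZEB2, TWIST1, FN1 and CDH2, which had at most 31 counts in a library.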
